A study of Xenopus laevis with 4 samples.

Results

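The Slit, semaphorin, netrin and ephrin guidance genes and their receptors were examined in hindlimb stumps of Xenopus laevis tadpoles that either fail to regenerate or regenerate. The array reads them with 37 probesets, out of 15491 probesets tested, which belong to 29 genes (20 L and 9 S copies, from the long and short homeologous chromosomes of this allotetraploid frog). They were taken by gene symbol alone: every probeset with a single symbol of the slit, robo, sema3 to sema7, plxn, nrp1 or nrp2, ntn, unc5, dcc, Eph, ephrin, rgmb or draxin families. No probeset with a single symbol was found for rgmb or draxin, and 1 further probeset that carries several symbols was left out.

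The N1 group was 2 pools of pseudoblastemas, the rounded stump tissue of the N1 transgenic line, and the WT group was 2 pools of blastemas of wild type siblings. Each pool held tissue of 20 hindlimbs collected 3 days after amputation at the future ankle at NF stage 52, and was hybridised to its own array. N1 carries Noggin, a secreted inhibitor of BMP ligands, under the Hsp70 promoter, with GFP under a lens promoter on the same insertion. The line comes from 1 single-insertion founder, the promoter is not limited to the limb, and all tadpoles, N1 and WT, were heat shocked for 30 minutes at 34°C, first 2 to 3 hours before and then 24 and 48 hours after amputation. The comparison asks which genes differ between stumps of one developmental stage when BMP signalling is blocked and regrowth fails. The tissue holds epithelium and mesenchyme together, so fewer cells of a type and less RNA per cell cannot be told apart.

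Guidance proteins steer growing axons, vessels and migrating cells. Slits repel cells through Robo receptors, semaphorins act through plexins and neuropilins, netrins attract through Dcc and neogenin and repel through Unc5 receptors, and ephrins bound to one cell signal to Eph receptors on the next and in both directions. In limb buds of other vertebrates Eph receptors and ephrins mark domains of mesenchyme and steer motor axons, and semaphorins and netrins guide nerve entry.

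Noggin, the transgene's product, was not higher in N1 by its probeset nog.L (75.6 and 52.2 in N1, 91.8 and 95.5 in WT), which is no check of the labels, since the transgene carries only coding sequence and where the probes of nog.L bind was not examined. On the array's EGFP control the signals were 123 and 108 in N1 and 16.1 and 29.4 in WT. The limb was recognised by hand2.S (3098 and 4420 in N1, 3638 and 3522 in WT) and pitx1.L (469 and 296 in N1, 286 and 364 in WT), both transcription factors of the limb field, while tbx4.L, the hindlimb T-box factor, was dimmer than the median probeset (62.2 and 81.8 in N1, 62.9 and 55.5 in WT). Markers of other cells differed between the groups. The counts below at an unadjusted p under 0.05 take each gene by its brightest probeset. Of all 6485 genes with 1 symbol, 7.43% were higher and 4.87% lower in N1 by the same rule. The summed signal of 13 measured epidermal genes was 13114 and 13627 in N1 and 9094 and 9078 in WT (5 higher in N1 and 0 lower at an unadjusted p under 0.05, 1 of the 13 in the dimmest 25% of the array), and that of 15 genes of blood cells and leucocytes was 44382 and 52177 in N1 and 23158 and 19157 in WT (6 higher and 0 lower, 5 of the 15 in the dimmest 25%). Most of the blood sum came from the globins hba2.L (22724 and 26780 in N1, 9309 and 7330 in WT) and hba3.L (18609 and 21895 in N1, 11854 and 10019 in WT). Of the 6 higher genes, all but lyz.L were globins or slc4a1.L, genes of red cells. For 7 genes of cartilage and bone the summed signal was 1201 and 1351 in N1 and 2405 and 1789 in WT (0 higher and 3 lower, 2 of the 7 in the dimmest 25%), and for 5 melanophore genes 4226 and 2414 in N1 and 1647 and 1901 in WT (2 higher and 0 lower, 1 of the 5 in the dimmest 25%). The 14 nerve and Schwann cell genes summed to 5739 and 5769 in N1 and 5776 and 6318 in WT, nearly equal in 3 arrays. The largest part came from pmp22.L (2895 and 2699 in N1, 3130 and 3837 in WT), and 7 of the 14 were in the dimmest 25%. At an unadjusted p under 0.05, 2 were higher, syt1.L (519 and 883 in N1, 311 and 321 in WT) and gap43.L (1168 and 1137 in N1, 978 and 563 in WT). The 1 lower was ncam1.S (746 and 851 in N1, 1066 and 1255 in WT). For 16 muscle genes the sum, most of it from pax3.L and ckm.L, was 5839 and 6360 in N1 and 6122 and 6190 in WT. The mean log2 signal was higher in N1 for 12 of the 16 (2 higher and 0 lower at an unadjusted p under 0.05, 9 in the dimmest 25%). It was also higher in N1 for 3569 of the 6485 genes, and for 4825 of the 7745 probesets below the median level, where 14 of the 16 lay. N1 replicate 1 stood apart in some genes of contractile fibres, such as mylpf.L (180 and 32.7 in N1, 8.04 and 7.85 in WT) and tnnc2.S (279.99 and 42.9 in N1, 40.8 and 17.6 in WT). It did not in others, such as tnnc1.L (33.8 and 32.1 in N1, 8.63 and 36.8 in WT), actn2.L (17.9 and 17.9 in N1, 21.7 and 30.8 in WT) and myl1.L (52.2 and 19.1 in N1, 69.4 and 27.0 in WT). The sums overlapped for 10 endothelial genes (2618 and 1931 in N1, 1827 and 1960 in WT, 2 higher and 1 lower) and for 15 limb mesenchyme genes (6756 and 8062 in N1, 8170 and 7978 in WT, 2 higher and 3 lower). The largest part of the limb mesenchyme sum came from hand2.S. Its 2 higher genes were hoxd13.S (270 and 209 in N1, 106 and 141 in WT) and shh.L. The 3 lower were hoxa11.S, lhx9.L and grem1.L (351 and 304 in N1, 1034 and 819 in WT). No signal on these arrays is 0, and the part of these cells in the results below was not tested.

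All 3 netrin probesets were higher in both N1 pools than in both WT pools, a pattern seen in 24.2% of all probesets. All 3 slit1.S probesets were lower in both N1 pools, as were 17.9% of all probesets. The difference was about 2-fold in the bright probesets, those of ntn5.L and slit1.S. The other 2 netrin probesets, both of ntn1.L, were dim and designed on the same sequence record. No Eph receptor, ephrin, plexin or semaphorin had an unadjusted p under 0.05. Of the 37 guidance probesets, 3 were higher in N1 at an unadjusted p under 0.05 from limma, against 6.82% of all probesets, and 3 were lower, against 4.29%. The 3 higher ones read ntn5.L, ntn1.L and unc5b.L, and the 3 lower ones all read the 1 gene slit1.S. Each direction took 8.1% of the guidance probesets, close to the background among the higher ones, and with each gene counted once by its brightest probeset 1 was higher and 1 lower. None passed an adjusted p of 0.05 from limma, whose background is 0.123% of all probesets (0.11% higher and 0.0129% lower), and the smallest adjusted p was 0.111. The number higher at an unadjusted p under 0.05 was 1 without N1 replicate 1 or without WT replicate 2, and the number lower was 2 without WT replicate 2, where the dim slit1.S probeset dropped out.

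Both N1 arrays lay above both WT arrays in 7 guidance probesets, against 24.2% of all probesets, and below both in 6, against 17.9%. That is 18.9% and 16.2% of the members, below the background in each direction, and the arrays of the groups overlapped in the other 24. The median log2 difference (N1 minus WT) of the 37 was 0.11, beside 0.07 over all probesets, and it turned to -0.08 after quantile normalisation and to -0.003 with each array centred on its median. The mean log2 signal was higher in N1 for 20 of the 37, 54.1%, against 55.9% of all probesets.

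**Figure D1:**
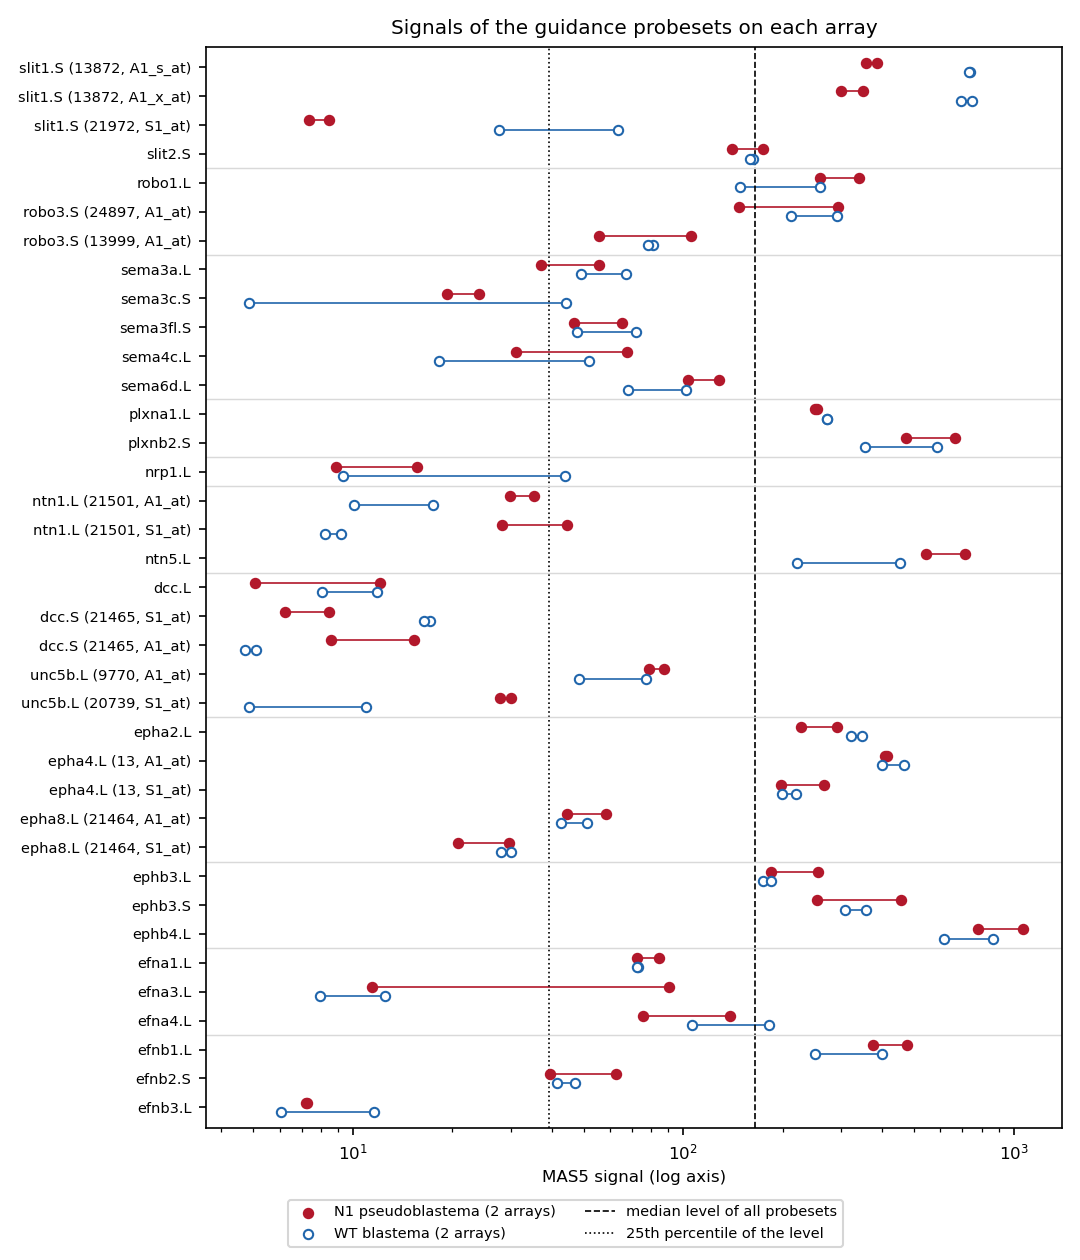
MAS5 signals (log axis) of the 37 guidance probesets, a row each, with filled points for the 2 N1 arrays above open points for the 2 WT arrays, and lines joining the arrays of a group. Dashed and dotted lines mark the median (a signal of 165) and the 25th percentile (39.3) of the level of all probesets. Both N1 arrays lie above both WT arrays in 7 rows, against 24.2% of all probesets, and below both in 6, against 17.9%. The rows of slit1.S, ntn1.L and ntn5.L are among these.

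How bright a probeset was set how well its difference was known. The median probeset of the array had a signal of 165, taken as the mean log2 signal over the 4 arrays. In these terms 14 guidance probesets were at this level or brighter and 23 were dimmer, with 13 in the dimmest 25% (signals under 39.3). The median standard error of the log2 difference was 0.30 in the 14 brighter and 0.70 in the 23 dimmer guidance probesets, beside 0.25 and 0.62 over all probesets. The unadjusted 95% interval of the difference lay within 2-fold in either direction for 8 of the 14 brighter ones and for 1 of the 23 dimmer ones. Over all probesets this held for 5312 of the 7746 brighter and 425 of the 7745 dimmer ones. The brighter Slit1, Robo, plexin, netrin 5 and Eph probesets can therefore be read with more precision than the semaphorins, netrin 1, Dcc, Unc5b and most ephrins.

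Slit1, a large secreted glycoprotein that repels axons and migrating cells through Robo receptors, was read by 3 probesets of its S copy. The one ending in A1_x_at had signals of 349 and 301 in N1 and of 747 and 693 in WT, and the one ending in A1_s_at had signals of 386 and 358 in N1 and of 736 and 734 in WT. In both, all 4 arrays were above the median level and neither N1 array came near a WT array. The means were 2.22-fold and 1.98-fold lower in N1, with log2 differences of -1.15 ± 0.22 and -0.98 ± 0.21 (SE) and adjusted p of 0.111 and 0.151 from limma. These 2 probesets were designed on the same sequence record and are not independent readings, and neither is specific to 1 transcript by design, since the ending _s marks probes shared by several transcripts and _x probes that may also bind unrelated ones. The third, ending in S1_at and designed on another record, was dim, with signals of 7.36 and 8.45 in N1 and of 27.7 and 63.7 in WT. It pointed the same way (log2 difference of -2.41 ± 0.77 (SE), adjusted p = 0.300 from limma), and its size is loosely known, since the unadjusted 95% interval ran from -4.16 to -0.66 and the difference was -3.01 without WT replicate 1 and -1.81 without WT replicate 2.

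Slit2, the second Slit on the array, was level between the groups. The probeset of slit2.S had signals of 141 and 174 in N1 and of 162 and 159 in WT, so that both WT arrays lay between the N1 arrays. Its log2 difference was -0.04 with an unadjusted 95% interval from -0.77 to 0.69. The brighter slit1.S probesets, at -0.98 and -1.15, lay outside this interval. Their own unadjusted 95% intervals, from -1.47 to -0.50 and from -1.66 to -0.64, overlapped it, and the difference between the genes was not tested.

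Robo1, a Slit receptor of axons and of other migrating cells, had a higher mean in N1. The probeset of robo1.L had signals of 341 and 259 in N1 and of 260 and 148 in WT, and the lower N1 array stood just below the higher WT array. The log2 difference was 0.60 with an unadjusted 95% interval from -0.19 to 1.38 (adjusted p = 0.571 from limma), and it was 1.00 without WT replicate 1. Robo3, known in mammals for letting commissural axons cross the midline, was read by 2 probesets of its S copy whose groups overlapped fully: the N1 arrays, at 147 and 294, and at 55.6 and 106, spanned the WT arrays at 212 and 291, and at 81.1 and 78.2. The log2 differences were -0.26 and -0.06, smaller than their standard errors of 0.38 and 0.47.

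**Figure D2:**
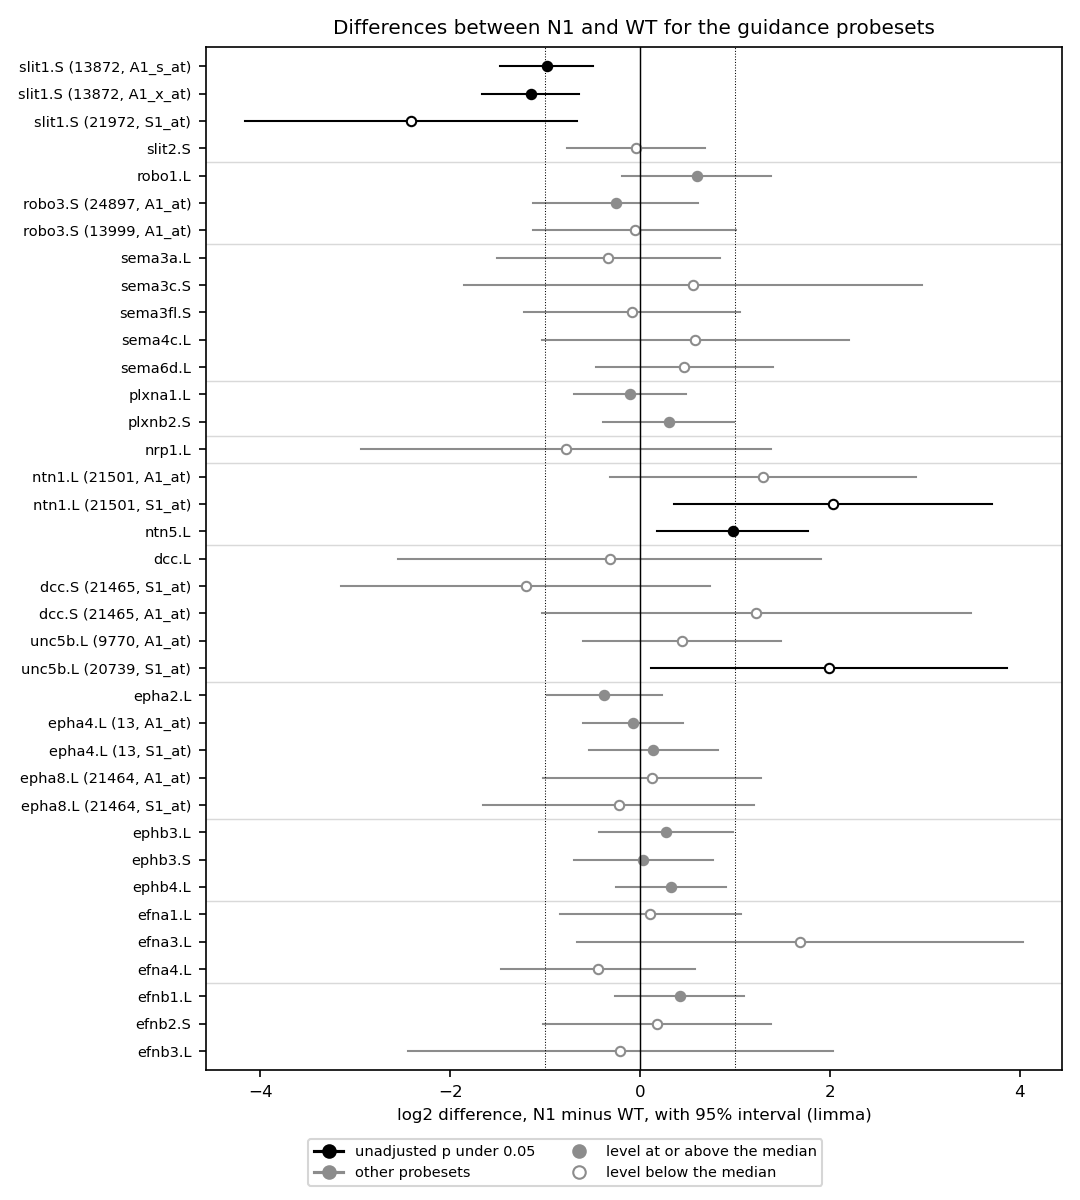
Log2 differences (N1 minus WT, x axis) of the 37 guidance probesets from limma with their unadjusted 95% intervals, black where the unadjusted p was under 0.05 and filled where the level was at or above the median. The 3 slit1.S intervals lie left of 0 and those of ntn5.L, 1 of 2 ntn1.L and 1 of 2 unc5b.L probesets lie right of it, while the dotted lines mark a 2-fold difference.

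Netrins were read by 3 probesets of 2 genes. Both N1 arrays lay above both WT arrays in all 3, against 24.2% of all probesets, but both ntn1.L probesets were designed on the same record and are not independent readings. Netrin 5 (ntn5.L), a member of the laminin-related netrin family, had signals of 711 and 542 in N1 and of 220 and 453 in WT. The 2 WT arrays stood further apart than the 2 N1 arrays, and the smallest gap between the groups was from 542 to 453. Its mean was 627 ± 120 (SD, n = 2) in N1 and 337 ± 165 in WT, 1.86-fold higher in N1, with a log2 difference of 0.98 ± 0.35 (SE) and an adjusted p of 0.355 from limma. The size rested on the WT arrays, since the log2 difference was 0.45 without WT replicate 1 and 1.496 without WT replicate 2.

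Netrin 1 (ntn1.L), the secreted cue that attracts axons through Dcc and repels them through Unc5 receptors, was dim in all samples. The probeset ending in S1_at had signals of 28.3 and 44.6 in N1 and of 8.23 and 9.20 in WT, and the one ending in A1_at had signals of 35.4 and 29.96 in N1 and of 17.5 and 10.1 in WT. Both were among the dimmest 25% of the array, and in both the lower N1 signal was above the higher WT signal. The log2 differences were 2.03 ± 0.73 and 1.30 ± 0.70 (SE), with adjusted p of 0.365 and 0.547 from limma. With 64 added to every signal, which damps the differences of dim probesets, they became 0.46 and 0.31.

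Unc5b, a receptor through which netrins repel and which is known in mice from growing vessels, had both N1 arrays above both WT arrays in both probesets of its L copy. The dimmer one, ending in S1_at, had signals of 27.8 and 30.04 in N1 and of 10.95 and 4.84 in WT. The brighter one had signals of 78.8 and 87.6 in N1 and of 48.5 and 77.2 in WT, with 77.2 just under the lower N1 signal. Their log2 differences were 1.99 ± 0.82 and 0.44 ± 0.46 (SE), and the adjusted p were 0.422 and 0.768 from limma.

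Dcc, the receptor through which netrin 1 attracts, was at the floor of the array. The 3 probesets, 2 of dcc.S and 1 of dcc.L, gave signals of 5.06 to 15.3 in N1 and of 4.71 to 17.1 in WT, all in the dimmest 25%. The 2 probesets of dcc.S were designed on the same record and went opposite ways without overlap: the one ending in S1_at had signals of 8.47 and 6.23 in N1 and of 17.1 and 16.4 in WT, and the one ending in A1_at had signals of 15.3 and 8.58 in N1 and of 5.10 and 4.71 in WT. These arrays give no direction for Dcc. Neogenin (neo1.L), the other netrin receptor of the attracting kind, which also binds RGM proteins, was brighter and differed little, with signals of 333 and 357 in N1 and of 345 and 267 in WT (log2 difference of 0.18, adjusted p = 0.836 from limma). Its ligand rgma.L had signals of 622 and 531 in N1 and of 538 and 510 in WT.

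**Figure D3:**
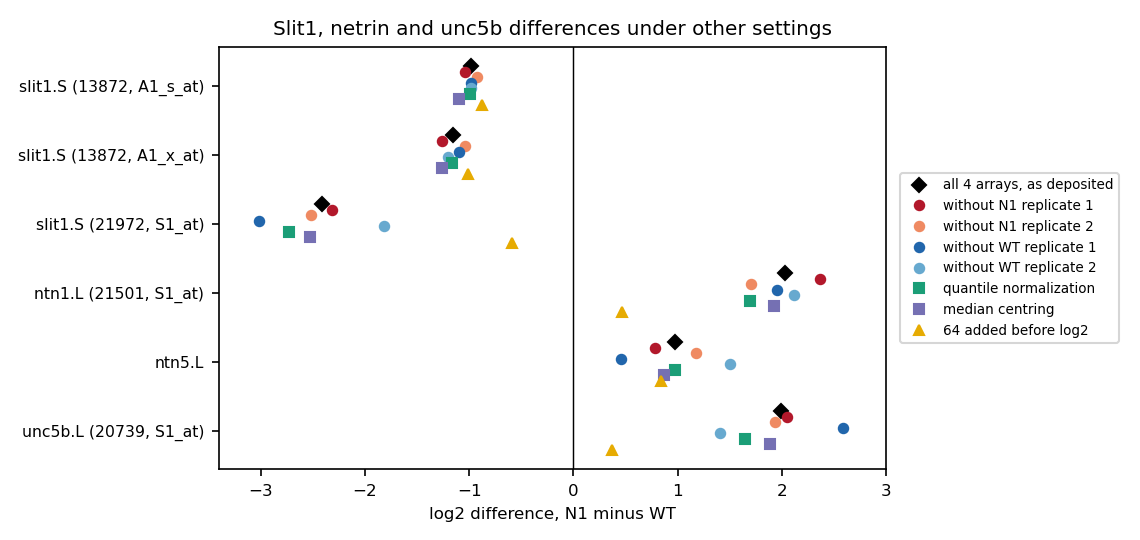
Log2 differences (N1 minus WT, x axis) of the 6 guidance probesets with an unadjusted p under 0.05, with all arrays, with each array left out, after quantile normalisation or median centring, and with 64 added before log2. The brighter slit1.S probesets stay between -1.26 and -0.88, ntn5.L spans 0.45 to 1.496, and the dim probesets of slit1.S, ntn1.L and unc5b.L shrink most with 64 added.

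Semaphorins, read by 5 probesets of 5 genes, were all below the median level and none had an unadjusted p under 0.05. Sema6d.L, a transmembrane semaphorin that binds plexin A1, had signals of 103 and 128 in N1 and of 68.0 and 102 in WT, with the lower N1 and the higher WT signal almost equal (log2 difference of 0.47 ± 0.41 (SE)). Sema3a.L, the secreted repellent of sensory and motor axons that acts through neuropilin 1, had signals of 37.2 and 55.7 in N1 and of 48.9 and 67.2 in WT, and sema3fl.S had 46.7 and 65.4 in N1 and 47.8 and 71.9 in WT. Both pairs of groups overlapped, as did those of sema3c.S and sema4c.L, whose arrays spread over a wide range (4.85 and 44.2 in the WT arrays of sema3c.S). None of the 5 unadjusted 95% intervals lay within 2-fold in either direction, so that a 2-fold difference was not excluded for any of them, and the adjusted p were between 0.715 and 0.968 from limma.

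Of the semaphorin receptors, both plexins were above the median level and neuropilin 1 was far below it. Plexin A1 (plxna1.L) had signals of 251 and 254 in N1 and of 273 and 272 in WT. The arrays of each group agreed closely, so that the groups did not overlap, but the difference was small, 1.08-fold lower in N1, with an unadjusted 95% interval of the log2 difference from -0.70 to 0.48 that draws on the spread of all probesets of this level. Plexin B2 (plxnb2.S), a receptor of class 4 semaphorins, had signals of 473 and 666 in N1 and of 587 and 354 in WT, which overlapped, and its direction turned without WT replicate 2 (log2 difference of -0.06, against 0.30 with all arrays). Neuropilin 1 (nrp1.L), the co-receptor of class 3 semaphorins and of VEGF, was in the dimmest 25%, with signals of 8.87 and 15.6 in N1 and of 43.7 and 9.33 in WT. Its lower mean in N1 came from the single WT array at 43.7, without which the log2 difference was 0.34.

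Eph receptors and ephrins gave 14 probesets of 12 genes, and none had an unadjusted p under 0.05, against 6.82% of all probesets higher and 4.29% lower. Both N1 arrays lay above both WT arrays in 0 of the 14, against 24.2% of all probesets, and below both in 1, against 17.9%. This 1 was EphA2 (epha2.L), a receptor of epithelia, with signals of 227 and 292 in N1 and of 321 and 348 in WT, 1.29-fold lower in N1 (log2 difference of -0.38 ± 0.27 (SE), adjusted p = 0.650 from limma). EphA4, known from limb mesenchyme and from the steering of hindlimb motor axons in other vertebrates, had signals of 408 and 414 in N1 and of 466 and 400 in WT by its brighter probeset, ending in A1_at. Its other probeset had signals of 197 and 267 in N1 and of 199 and 220 in WT. The log2 differences of EphA4 were -0.07 and 0.14, and the unadjusted 95% interval of the first, from -0.60 to 0.46, holds no change as large as 2-fold.

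EphB receptors and ephrin-B1 had means somewhat higher in N1, with overlapping arrays. EphB4 (ephb4.L), a receptor that marks veins in mice, had signals of 1068 and 782 in N1 and of 867 and 614 in WT, 1.25-fold higher by the mean (log2 difference of 0.33 ± 0.25 (SE)). EphB3 had signals of 257 and 184 in N1 and of 174 and 185 in WT by its L copy, and of 456 and 254 in N1 and of 358 and 308 in WT by its S copy. Ephrin-B1 (efnb1.L), a transmembrane ligand of EphB receptors, had signals of 477 and 375 in N1 and of 398 and 251 in WT, 1.31-fold higher by the mean (log2 difference of 0.42 ± 0.30 (SE), adjusted p = 0.650 from limma). In all 4 probesets the lower N1 array lay below the higher WT array, so each difference was within the spread of the arrays. Of the 7 Eph and ephrin probesets at or above the median level, 6 had an unadjusted 95% interval within 2-fold in either direction, against 5312 of all 7746 at that level. The exception was efnb1.L, whose interval reached 1.09.

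The other ephrins were dim. Ephrin-A4 (efna4.L), a ligand held in the membrane by a lipid anchor like the other ephrin-A proteins, had signals of 138 and 75.5 in N1 and of 181 and 106 in WT, and ephrin-A1 (efna1.L) had 84.3 and 72.5 in N1 and 72.9 and 72.4 in WT. Ephrin-A3 (efna3.L) had the largest ratio of N1 to WT means among the guidance probesets, 4.97, but this rested on 1 array, with signals of 90.6 and 11.4 in N1 and of 12.5 and 7.98 in WT. Without N1 replicate 1 its second N1 array was no higher than 1 of the WT arrays. Ephrin-B2 (efnb2.S) and ephrin-B3 (efnb3.L) had signals of 39.6 to 62.6 and of 7.21 to 7.29 in N1, and of 41.4 to 47.1 and of 6.05 to 11.6 in WT, and EphA8 (epha8.L), read by 2 dim probesets with log2 differences of 0.13 and -0.23, overlapped in both.

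**Figure D4:**
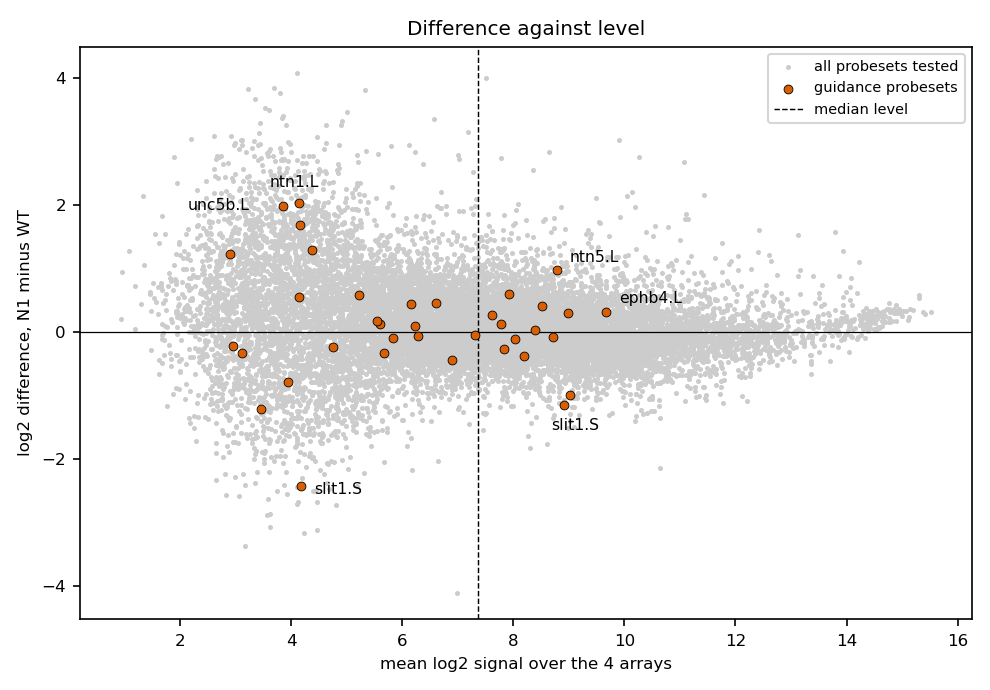
Log2 difference (N1 minus WT, y axis) against the mean log2 signal over the 4 arrays (x axis) for all 15491 probesets (grey) and the 37 guidance probesets (orange), with the median level dashed. The brighter slit1.S probesets, at -0.98 and -1.15, and ntn5.L, at 0.98, stand toward the edge of the grey cloud at their level, and the other brighter guidance probesets lie inside it.

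By role, 5 of 18 ligand probesets (2 higher in N1, of ntn1.L and ntn5.L, and 3 lower, all of slit1.S) and 1 of 19 receptor probesets (higher, of unc5b.L) had an unadjusted p under 0.05, against 6.82% of all probesets higher and 4.29% lower. By gene, counting each gene with any such probeset, these were 3 of 15 ligands and 1 of 14 receptors. This rule favours genes with several probesets, such as slit1.S, ntn1.L and unc5b.L, and the share over all genes by it was not computed. With each gene taken by its brightest probeset, 1 was higher (ntn5.L) and 1 lower (slit1.S), both ligands. The background by brightest probeset was 7.43% higher and 4.87% lower of the 6485 genes with 1 symbol. The difference between the roles was not tested. By the ratio of the mean signals, 1 of the 14 guidance probesets at or above the median level was over 1.5-fold higher in N1 (ntn5.L), against 8.29% of all probesets at that level, and 2 were over 1.5-fold lower (both of slit1.S), against 5.91%. Without WT replicate 1 the number higher became 4, robo1.L, plxnb2.S, ephb4.L and efnb1.L, and ntn5.L was no longer among them, and without N1 replicate 2 it became 2, ntn5.L and robo1.L, with 3 lower.

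Genes that work with these cues inside the cell or beside them on its surface were taken from a list of 117, of which 58 were measured, each by its brightest probeset. At an unadjusted p under 0.05, 4 were higher and 1 lower in N1, against 7.43% and 4.87% of the 6485 genes with 1 symbol, and none passed an adjusted p of 0.05 from limma. The number higher was 2 without N1 replicate 2 or WT replicate 1 and 1 without WT replicate 2, and the number lower was 3 and 2 without N1 replicate 1 and without N1 replicate 2 and 0 without either WT array. Syndecan 4 (sdc4.L), a heparan sulphate proteoglycan of the cell surface, had signals of 3450 and 4399 in N1 and of 2785 and 2709 in WT, 1.43-fold higher in N1. The tetraspanin cd9.S had signals of 5243 and 4926 in N1 and of 3549 and 2806 in WT, and micall2.L, a relative of the MICAL enzymes that act below plexins, had 313 and 310.0 in N1 and 199 and 196 in WT. In these 3, which were taken by their unadjusted p, both N1 arrays lay above both WT arrays, as in 1588 of the 6485 genes. Their adjusted p were 0.372, 0.224 and 0.413 from limma. The polarity protein pard6b.S was dim, with signals of 85.4 and 80.2 in N1 and of 19.5 and 13.5 in WT, and so was evl.S, an actin regulator of the Ena/VASP family and the one lower in N1, with 10.1 and 28.1 in N1 and 65.0 and 66.3 in WT.

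By pathway, measured partners were counted as listed, at the same unadjusted p under 0.05 and against the same 7.43% higher and 4.87% lower. Of the 11 listed for Slit and Robo 1 was higher and 0 lower in N1. Of the 14 listed for semaphorins and plexins 2 were higher (cd9.S and micall2.L) and 0 lower. The place of these 2 in that pathway rests on the list alone. Of the 13 listed for netrins and RGM proteins 0 were higher and 1 lower, and of the 20 for Ephs and ephrins 1 and 0. The median log2 difference of the 58 was 0.08, beside 0.06 over the 6485 genes. Of the small GTPases on the list, rhoa.L, rac1.L and cdc42.L had log2 differences of 0.14, 0.03 and -0.17, each below its standard error. Others differed more. Rnd1.S was lower in N1 (322 and 176 in N1, 403 and 357 in WT, log2 difference of -0.67 ± 0.33 (SE)). The dim mras.L was higher (60.9 and 46.7 in N1, 26.7 and 37.4 in WT, log2 difference of 0.76 ± 0.55 (SE)). The log2 difference of rnd3.L was 0.15 ± 0.34 (SE). The groups overlapped for rac1.L, while both N1 arrays of rhoa.L (7356 and 6958) were above both WT arrays (6431 and 6565) and both N1 arrays of cdc42.L (3116 and 3541) below both WT arrays (3850.2 and 3607). Of the 6485 genes, 1588 had both N1 arrays above both WT arrays and 1248 had both below.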

How the data were processed

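The authors normalised each Affymetrix X. laevis GeneChip in GCOS with MAS5 and deposited signal intensities on a linear scale, with each array scaled to a mean of 500 after trimming 2% at each end. RNA had been labelled with the 2-cycle kit. Versions of GCOS and MAS5 are not given in the sources used here, and detection calls were not used here. Of 15611 probesets, 120 controls were left out. Symbols came from the platform's annotation, and the genes of 35 of the 37 guidance probesets were found in the RefSeq table of Xenopus_laevis_v10.1. N1 was compared with WT on log2 signals with limma 3.58.1 in R 4.3.3 (eBayes with a variance trend), adjusted by the Benjamini-Hochberg method over all 15491 probesets. The fit was tested on simulated data with changes put only into probesets at or above the median level, so that test does not cover dim probesets. Intervals are for single probesets and are not adjusted. An exact permutation test of 2 arrays against 2 could not reach 0.05, so the number of arrays limits the precision. Probesets were described in full where the unadjusted p was under 0.05, where the groups did not overlap at or above the median level, where they shared a gene with one of these, or where they were the brightest of a family, and partner genes where the unadjusted p was under 0.05. The remaining values given (other guidance probesets, neo1.L, rgma.L and the GTPases) were chosen after they were seen. The members and lists were chosen with earlier results of these data known. Partner and marker genes were taken by their brightest probeset. The alternatives left out the variance trend, dim probesets or an array in turn, normalised by quantiles or centred on the median, added 16 or 64 to the signals, or took the replicate number as a block. Genes counted once, fold counts with no level filter and the settings for the partner lists were added after the data were seen. No sequence of the probes or genes was used here.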

Additional observations from a re-analysis of the deposited data

How the results depend on the processing

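No guidance probeset passed an adjusted p of 0.05 from limma under any setting but the block. GEO's labels give a replicate number that ties no N1 sample to a WT sample. Over all probesets the deviations of same-numbered arrays correlated at 0.028. This single value over many dim probesets cannot show whether same-numbered arrays were handled together, so pairing stays unknown. With the replicate number as a block 1 probeset passed, that of slit1.S ending in A1_x_at (adjusted p = 0.0316 from limma). Under the other settings that kept all 4 arrays its adjusted p was between 0.0814 and 0.419 from limma. How many of all probesets passed with the block was not counted, so the share given for the fit without a block does not apply to it. The number higher in N1 at an unadjusted p under 0.05, 3 as deposited, was 1 with only probesets as bright as the median, or as the 25th percentile, of the array, 1 after quantile normalisation, 1 with each gene counted once by its brightest probeset, and 1 to 2 with an array left out. The number lower, also 3, was 1 with each gene counted once and 2 to 3 with an array left out. The median log2 difference of the guidance probesets, 0.11, was -0.078 after quantile normalisation, -0.0026 with median centring (which moves all probesets by 0.11), and between -0.0052 and 0.11 with an array left out. Over 1.5-fold, 1 probeset was higher in N1 (1 to 4 with an array left out, 6 with no level filter) and 2 were lower (2 to 3, and 5). For the counts under these other settings and with no level filter, the share over all probesets was not counted. With an array left out the log2 difference ranged from -0.063 to 0.66 for plxnb2.S, from -1.89 to 0.34 for nrp1.L and from -0.18 to 0.039 for the brighter epha4.L probeset, and none of the other 15 guidance probesets described in full changed sign under any setting. Fits with an array left out assume that a lone array varies like those of the other group. Of the partner genes 4 were higher and 1 lower, against 2 and 3 with median centring. Dim signals limit semaphorins, Dcc, netrin 1, neuropilin 1 and most ephrins.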

Other observations

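Without the variance trend, a term that lets the expected spread depend on the level, 4 guidance probesets were higher and 4 lower in N1 at an unadjusted p under 0.05 from limma. Both probesets of dcc.S were then among them, in opposite directions, with log2 differences (N1 minus WT) of -1.21 and 1.22, while ntn5.L was not. The share over all probesets without the trend was not counted. Of the 8 guidance genes read by over 1 probeset, homeologs counted as one, 5 had all probesets on one side (slit1, robo3, ntn1, unc5b and ephb3) and 3 on both sides (dcc, epha4 and epha8). The differences of robo3 and ephb3 were below their standard errors, so their sides carry little weight. The same share over all genes of the array was not computed. The 2 N1 arrays differed by over 1.5-fold in 11 guidance probesets, 6 of them higher on the first array and 5 on the second, and the 2 WT arrays in 15, 9 and 6. The same share over all probesets was not computed. Over all probesets the median absolute log2 difference was 0.42 between the N1 arrays and 0.31 between the WT arrays. It was 0.44 and 0.46 for the guidance probesets, and 0.39 and 0.22 for those at or above the median level.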
